A study of Rattus norvegicus with 6 samples.

Results

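The 8 genes described here encode ATF4, CHOP and the factors that work with them in the integrated stress response: Atf4, Atf3, Atf5, Ddit3 (which encodes CHOP), Cebpb, Cebpg, Trib3 and Nupr1. They were picked by gene symbol from the 19289 features of the deposited table, where each symbol was listed once. They were chosen with the results of the uric acid comparison in view, so every value of theirs in that comparison is a description. RNA came from INS-1E, a rat insulinoma line that makes and secretes insulin. Of 6 libraries, 3 were from untreated cells and 3 from cells treated for 24 hours with uric acid, a product of purine breakdown. The labels give no uric acid dose, and no vehicle or time for the untreated cells. They also do not say whether the replicates were separate cultures, so the spread between libraries may be technical.

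When a cell runs short of amino acids, misfolds protein in the endoplasmic reticulum or meets other stresses, kinases phosphorylate the initiation factor eIF2alpha. Most translation then slows, while the messages of Atf4, Atf5 and Ddit3, which carry short upstream reading frames, are translated better. ATF4 is a basic leucine zipper (bZIP) factor that binds DNA in pairs with other bZIP proteins, above all C/EBP factors, and raises genes of amino acid supply together with Ddit3, Atf3, Trib3 and Nupr1. In beta cells this branch is known both for adapting insulin-making cells to folding load and, when CHOP stays high, for cell death. Messenger RNA was measured here, so neither the translation nor the amount of these proteins is known.

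Library totals ran from 41191819 to 59092982 estimated counts, uric acid library 2 being the smallest. All 10 listed beta-cell markers were present, with mean levels from 42.7 to 49247 FPKM (fragment counts adjusted for transcript length and sequencing depth). Of 9 listed markers of other pancreatic, vascular, immune and connective cells, 8 had means under 1 FPKM and the other, Gcg (glucagon), had a mean of 8.8 FPKM. Beta-cell markers summed to between 74360 and 88324 FPKM in untreated libraries and between 73093 and 85418 with uric acid, and the markers of other cells to 6.77 to 12.7 and 9.7 to 12.2 FPKM. In bulk RNA, fewer cells holding a message and less message per cell cannot be told apart.

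With uric acid, the messages of 7 of the 8 genes were higher and that of Atf5 was not. The 3 uric acid libraries lay above all 3 untreated libraries for each of the 7, and Trib3 and Atf3 stood more than 10-fold over untreated cells. In edgeR's quasi-likelihood fit across all 12460 features with a mean of at least 1 FPKM, 7 of 8 were past an adjusted p of 0.05 (Benjamini-Hochberg), where 4.99% of all tested features were called higher and 7.98% in either direction. In 16.8% of all tested features the 3 uric acid libraries were all above the untreated ones. Nothing is read from these counts, given how the genes were chosen. All 8 passed the filter on low values, but Atf3 did so only through its uric acid libraries. Log2 fold changes are given with the standard error of that fit.

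**Figure D1:**
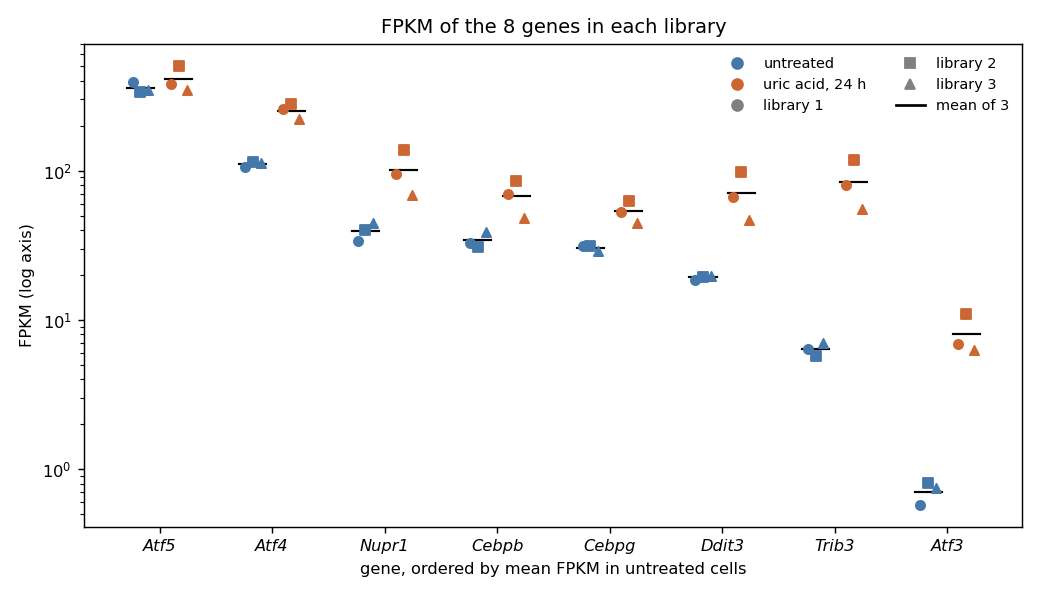
FPKM of the 8 genes (log axis) in each of the 3 untreated (blue) and 3 uric acid (orange) libraries, symbols marking the library number and bars the mean of 3. Groups overlap for Atf5, at 338 to 393 and 344 to 502 FPKM, and are apart for the other genes, with Trib3 moving from 5.75 to 6.98 up to 55.3 to 117 FPKM.

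Atf4, the central factor of the response, stood at 106, 114 and 113 FPKM in untreated libraries 1, 2 and 3 and at 257, 278 and 222 FPKM in uric acid libraries 1, 2 and 3. Its untreated libraries lay close together, and the uric acid libraries were 2.32, 2.5 and 2.0 times the untreated mean. The mean rose 2.27-fold, from 111 ± 4.3 to 253 ± 28.4 FPKM (SD, n = 3 per group), a log2 fold change of 1.18 ± 0.09. Atf4 (ENSRNOG00000017801) lies on chromosome 7 from 121480723 to 121482772, in a genome build not given in the sources used here. Atf5, a close relative of ATF4 whose message is also under translational control, was the most abundant of the 8 per length. It stood at 393, 338 and 346 FPKM untreated and at 382, 502 and 344 FPKM with uric acid, and only uric acid library 2 was above the untreated range. The difference of 0.19 ± 0.13 on the log2 scale was within the spread of the libraries. Leaving out uric acid library 2 gave 0.01. Atf5 is ENSRNOG00000020060 on chromosome 1 from 100808241 to 100810522.

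Ddit3 encodes CHOP, a C/EBP family protein with an altered basic region that pairs with other C/EBP factors and is tied to stress-induced death. Its level was 18.6, 19.5 and 19.8 FPKM in untreated libraries and 66.5, 98.2 and 46.5 FPKM in uric acid libraries 1, 2 and 3. Untreated values varied by 2.99% (coefficient of variation) and uric acid values by 37.1%, uric acid library 2 being 2.11 times library 3. The mean rose 3.65-fold (log2 fold change 1.87 ± 0.23), and single uric acid libraries were 3.45, 5.09 and 2.41 times the untreated mean. Ddit3 (ENSRNOG00000006789, chromosome 7 from 70580198 to 70585084) overlaps by 72 bases with Mars1, the methionyl-tRNA synthetase gene on the other strand. Mars1 itself rose from 57.2 ± 0.912 to 83.5 ± 10.4 FPKM (log2 fold change 0.54 ± 0.09, adjusted p = 0.00928 in edgeR, 0.0563 without untreated library 2). The strand setting of the counting is not given, so the part of Mars1 reads in the Ddit3 value was not tested.

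Atf3, a stress-induced bZIP factor that often acts as a repressor, was the scarcest. It stood at 0.578, 0.805 and 0.746 FPKM in untreated libraries, from 122 to 151 estimated counts, and at 6.93, 10.9 and 6.3 FPKM with uric acid, from 1014 to 1586 counts. Even the lowest uric acid library was 8.87 times the untreated mean. The mean rose 11.3-fold, from 0.71 ± 0.118 to 8.03 ± 2.48 FPKM, with a log2 fold change of 3.49 ± 0.24. On the log2(FPKM + 1) scale of limma the change was 2.37, since the added 1 exceeds the untreated level. Atf3 is ENSRNOG00000003745 on chromosome 13 from 109817728 to 109849632.

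The genes of the C/EBP partners had smaller folds. Cebpb encodes C/EBPbeta, made as activating and inhibitory forms from 1 message, and stood at 32.7, 31.0 and 38.7 FPKM untreated against 69.6, 85.6 and 48.3 FPKM with uric acid. Its uric acid libraries were 2.04, 2.51 and 1.42 times the untreated mean, with library 3 closest to the untreated range. The mean rose 1.99-fold (log2 fold change 0.99 ± 0.18). Cebpb no longer passed without untreated library 1 (adjusted p = 0.0679 in edgeR), untreated library 2 (0.0813) or uric acid library 1 (0.0633), at log2 fold changes of 0.95, 0.92 and 0.98. Cebpg encodes C/EBPgamma, a short family member without a strong activation domain that pairs with ATF4. It stood at 31.5, 31.1 and 28.8 FPKM untreated and at 52.6, 63.0 and 44.5 FPKM with uric acid. All 3 uric acid libraries were above the untreated ones, and the mean rose 1.75-fold (0.81 ± 0.11). Cebpb (ENSRNOG00000057347) lies on chromosome 3 from 164424515 to 164425910 and Cebpg (ENSRNOG00000021144) on chromosome 1 from 91287917 to 91296656.

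Trib3 encodes a pseudokinase that binds ATF4, CHOP and the kinase AKT and is known for holding ATF4 and CHOP activity in check. It stood at 6.37, 5.75 and 6.98 FPKM in untreated libraries and at 79.8, 117 and 55.3 FPKM in uric acid libraries 1, 2 and 3. The uric acid libraries were 12.5, 18.3 and 8.69 times the untreated mean, against 9.76, 15.3 and 8.87 for Atf3. The log2 fold change was 3.72 ± 0.25. From the seventh place per length in untreated cells, Trib3 moved to the fourth with uric acid. Trib3 (ENSRNOG00000007319) lies on chromosome 3 from 147813473 to 147819571.

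Nupr1 encodes a small, disordered chromatin protein induced by stress in the pancreas, once named p8. It stood at 33.7, 40.3 and 44.3 FPKM untreated and at 94.7, 138 and 68.4 FPKM with uric acid. The groups did not overlap, and the spread among uric acid libraries (35.0%) was close to that of Ddit3 and Trib3. The mean rose 2.55-fold, from 39.4 ± 5.38 to 100.3 ± 35.1 FPKM (log2 fold change 1.35 ± 0.23). Nupr1 no longer passed without untreated library 1 (1.24, adjusted p = 0.0522 in edgeR) or untreated library 2 (1.36, 0.0546).

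The level of Nupr1 is uncertain because the table lists a second feature, Nupr1l1, with nearly the same values. Nupr1 (ENSRNOG00000019206) lies on chromosome 1 from 194767474 to 194769524 and Nupr1l1 (ENSRNOG00000050922) on the same chromosome from 198043073 to 198045154. Nupr1l1 had 1546, 1634 and 1651 estimated counts in untreated libraries and 3498, 4338 and 2349 with uric acid, where Nupr1 had 1554, 1642 and 1663 and then 3576, 4423 and 2419. The paired counts differed by 0.487 to 2.89%. The RefSeq gene table of the newer assembly GRCr8 holds 1 gene under both names. Whether reads were split between the 2 features or counted at both was not tested. Summing the features gave 76.8 ± 10.4 FPKM untreated and 194 ± 68.2 FPKM with uric acid, with the log2 fold change at 1.33 ± 0.22, against 1.35 ± 0.23 for Nupr1 alone.

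Per length, the order in untreated cells was Atf5, Atf4, Nupr1, Cebpb, Cebpg, Ddit3, Trib3 and Atf3, from 359 ± 30.1 down to 0.71 ± 0.118 FPKM. In that order the libraries of Nupr1 and Cebpb overlapped, as did those of Cebpb and Cebpg, and every other pair of neighbours was apart. With uric acid the order became Atf5, Atf4, Nupr1, Trib3, Ddit3, Cebpb, Cebpg and Atf3. The levels from Nupr1 to Cebpg then overlapped neighbour by neighbour. Atf5 at 409 ± 82.4 FPKM, Atf4 at 253 ± 28.4 FPKM and Atf3 at 8.03 ± 2.48 FPKM stayed apart from the genes next to them.

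The makeup of the bZIP messages shifted with these changes. Summed over the 6 bZIP genes, FPKM was 583, 534 and 547 in untreated libraries and 835, 1038 and 712 in uric acid libraries, groups that do not overlap. Atf5 held 67.5, 63.3 and 63.2% of that sum in untreated libraries and 45.8, 48.3 and 48.3% in uric acid libraries. Atf4 held 18.2, 21.3 and 20.7% and then 30.8, 26.8 and 31.2%. The share of Ddit3 went from 3.48 ± 0.249 to 7.99 ± 1.47% and that of Atf3 from 0.129 ± 0.0266 to 0.921 ± 0.113%. The share of Cebpg was 5.5 ± 0.292 and 6.21 ± 0.12%, with groups apart, and that of Cebpb overlapped between groups, at 5.61 to 7.08 and 6.79 to 8.33%. As a ratio of FPKM, Atf4 over Atf5 was 0.27, 0.337 and 0.328 untreated and 0.673, 0.555 and 0.646 with uric acid, while Cebpb over Cebpg overlapped between groups at 0.995 to 1.34 and 1.09 to 1.36.

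**Figure D2:**
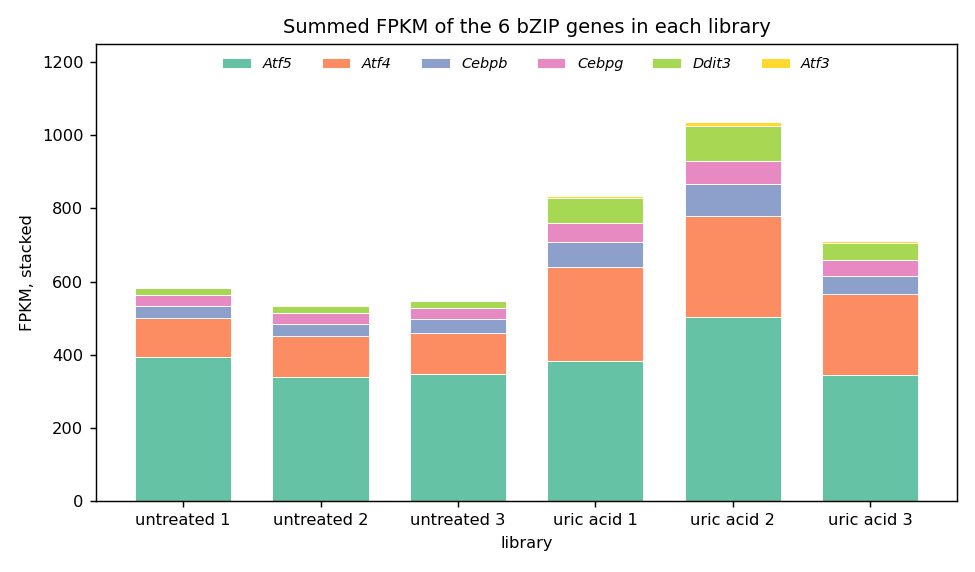
Stacked FPKM of the 6 bZIP genes in each library (bars start at 0). The untreated bars reach 534 to 583 FPKM and the uric acid bars 712 to 1038 FPKM, with Atf4 and Ddit3 taking larger parts of the uric acid bars and Atf5 a smaller one.

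All 8 genes placed the uric acid libraries in 1 order: library 2 highest, then library 1, then library 3. That order was found in 25.8% of all tested features and in 40.3% of the 615 other features called higher. It was more frequent in the ATF4 targets listed below, at 21 of 31 tested (67.7%) and 13 of 22 called higher (59.1%). For the 8 genes the order was the same in FPKM and in TMM-scaled CPM (counts adjusted for depth only). On the log2(FPKM + 1) scale, the median of the 8 lay 1.23, 1.55 and 0.89 above the untreated mean in uric acid libraries 1, 2 and 3, and between -0.05 and 0.03 in the untreated libraries. The median of all tested features stayed between -0.01 and 0.01 in every library. The sum of all FPKM was 1.08 times as high in uric acid library 2 as in library 3 and the total count 0.918 times, against ratios of the genes from 1.25 for Atf4 to 2.11 for Ddit3 and Trib3. Ratios of at least 2 were found in 3 of the 8 (Ddit3, Trib3 and Nupr1), in 1.79% of the other features called higher and in 1.21% of all tested features. Among the 22 ATF4 targets called higher, 2 had such a ratio (9.09%). What set library 2 apart from library 3 was not tested.

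**Figure D3:**
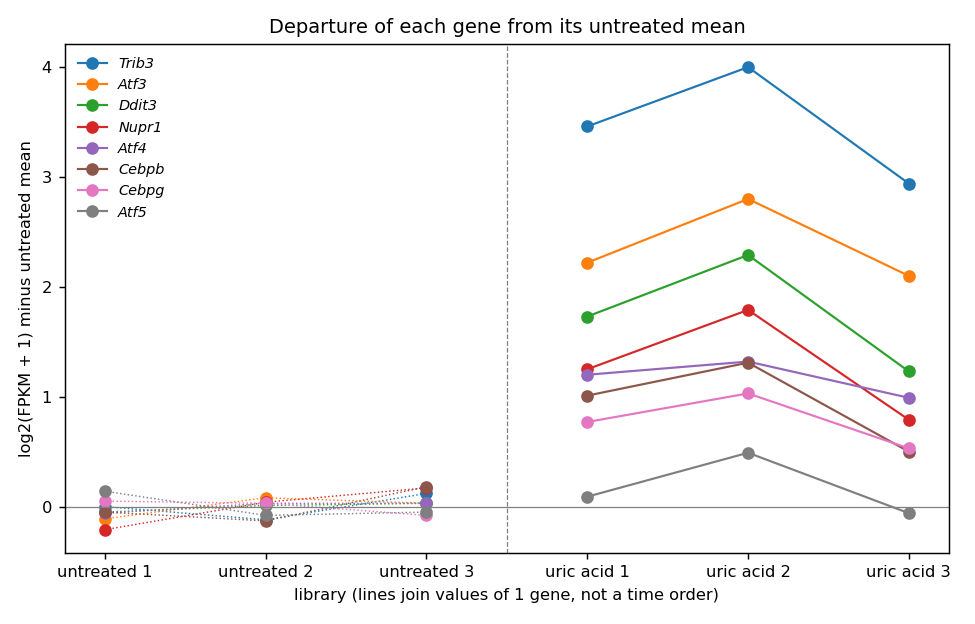
Log2(FPKM + 1) of each gene minus its mean over untreated libraries, for the 3 untreated and 3 uric acid libraries (lines only join the values of 1 gene). The untreated values stay between -0.21 and 0.18, and every gene peaks in uric acid library 2, from 0.49 for Atf5 to 4.0 for Trib3.

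Ratios among Ddit3, Trib3 and Nupr1 varied little across the uric acid libraries. Trib3 over Ddit3, as a ratio of FPKM, was 0.342, 0.296 and 0.353 in untreated libraries and 1.2, 1.19 and 1.19 in uric acid libraries 1, 2 and 3. Nupr1 over Ddit3 was 1.81, 2.07 and 2.24 and then 1.42, 1.4 and 1.47. Ddit3 over Atf4 went from 0.176, 0.171 and 0.174 to 0.258, 0.353 and 0.209, and Trib3 over Atf4 from 0.0573 ± 0.00598 to 0.326 ± 0.0859. Ranked by the coefficient of variation of their ratio to Ddit3 over the 3 uric acid libraries, Trib3 was the first of 621 features called higher (0.58%), Nupr1l1 the second (1.9%) and Nupr1 the third (2.42%). Cebpb ranked 15 (10.1%), Atf3 25 (14.2%), Cebpg 44 (19.9%) and Atf4 91 (25.5%). This ranking was made after the values were seen and rests on 3 libraries.

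Outside the 8 genes, the features with the nearest profiles were sought by the root mean square difference over the 6 libraries of log2(FPKM + 1) minus its untreated mean, among 10880 candidates with a settled symbol. Nearest to Atf4 were Otub2, a deubiquitinase (0.09), Flcn, folliculin (0.09), and Gpt2, an alanine transaminase (0.11). Nearest to Ddit3 were Gdf15, a stress hormone (0.08), Angptl8 (0.10) and G0s2, an inhibitor of triglyceride breakdown (0.16). Angptl8 stood 1.63, 2.37 and 1.05 above its untreated mean in uric acid libraries 1, 2 and 3, where Ddit3 stood 1.73, 2.29 and 1.23 above. Trib3 had more distant neighbours: Chac1, a glutathione-degrading enzyme, lay at 0.29, Inhbe, an activin subunit gene, at 0.39 and the amino acid carrier Slc1a4 at 1.21. The added 1 compresses scarce genes, so a near profile can hide an unequal fold. In edgeR, Inhbe, at 0.361 FPKM untreated, had a log2 fold change of 4.82 against 3.72 for Trib3, and Gpt2, at 1.61 FPKM untreated, one of 1.66 against 1.18 for Atf4.

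Upstream of ATF4, 19 genes were tested: the subunits of eIF2, the eIF2alpha kinases and their regulators Gcn1, Dele1, Impact and Dnajc3, the phosphatase subunits, the exchange factor eIF2B, and Eif2a, which encodes the separate initiation factor eIF2A. Of these, 3 rose and 1 fell, with a median log2 fold change of -0.03 against 0.00 over all tested features (4.99% of them called higher and 2.99% lower). DESeq2 called 3 higher and 4 lower (7.77 and 6.3% of all features), and 5 were higher and 5 lower at an unadjusted p under 0.05 in edgeR (13.7 and 12.0% of all features). The gene of eIF2alpha itself, Eif2s1, stood at 39.7 ± 0.465 and 33.2 ± 2.64 FPKM and did not pass (-0.26 ± 0.08, adjusted p = 0.0809 in edgeR). The largest rise was in Ppp1r15a, which encodes GADD34, the inducible phosphatase subunit that ends the response. It went from 12.3, 11.6 and 11.2 to 26.4, 41.5 and 20.8 FPKM (log2 fold change 1.34 ± 0.21, adjusted p = 0.0081 in edgeR), with library 2 again the highest. Its constitutive counterpart Ppp1r15b rose by 0.45 ± 0.07 (0.00769, and 0.0573 without untreated library 2). The other 2 calls were weak: Eif2a (eIF2A) at 0.45 (0.0494) was lost in 11 of 16 alternative fits and Eif2b5, an eIF2B subunit gene, at -0.32 (0.0214) in 5. The kinases Eif2ak3 (PERK, -0.10, adjusted p = 0.583) and Eif2ak4 (GCN2, -0.22, 0.127) did not pass. Groups overlapped for Eif2ak3. For Eif2ak4 the uric acid libraries, at 6.35 to 7.41 FPKM, all lay below the untreated ones, at 7.56 to 8.68 FPKM. That was so in 14.2% of all tested features.

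Of 35 other bZIP factors and regulators tested, 6 rose and 2 fell, or 17.1 and 5.71%. Over all tested features, 4.99% were called higher and 2.99% lower. The median log2 fold change was 0.09 for the 35, against 0.0 over all tested features. Crebrf, which promotes the breakdown of the stress factor CREB3, went from 1.69, 1.79 and 1.70 to 7.19, 7.39 and 7.40 FPKM (2.08 ± 0.08, adjusted p = 5.68e-06 in edgeR), with uric acid libraries close to one another. Jdp2, a repressor that pairs with JUN and is itself an ATF4 target, went from 2.08 ± 0.454 to 8.29 ± 1.31 FPKM (1.99 ± 0.21, 0.00113). Nfil3, a repressor that binds D-box elements, rose from 8.31 ± 0.725 to 23 ± 5.44 FPKM (1.47 ± 0.16, 0.00159), and the small MAF factor Maff rose by 1.02 ± 0.15 (0.00553). These 4 passed with any 1 library left out. Jun at 0.57 (0.0276) and Jund at 0.29 (0.0494) were less secure. Leaving out any single library other than uric acid library 3 lost both calls, with edgeR's adjusted p at 0.0501 to 0.0966 for Jun and 0.0656 to 0.197 for Jund.

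Creb3 fell from 52.5 ± 1 to 40.9 ± 2.52 FPKM (-0.36 ± 0.07, adjusted p = 0.0156 in edgeR, but 0.0871 and 0.0543 without untreated libraries 2 and 3). With the replicate number as a block, Creb3 did not pass either (adjusted p = 0.0705 in edgeR). The beta-cell factor Mafa was the other one lower (-0.46 ± 0.08, 0.0129, but 0.071 and 0.0564 when the first library of the treated or of the untreated cells is omitted). The bZIP factors of the other branches of the unfolded protein response stood at 129.8 ± 7.89 and 132 ± 13.9 FPKM for Xbp1 and at 11.9 ± 1.87 and 11.7 ± 0.73 FPKM for Atf6, differences within the spread. The remaining C/EBP genes also stayed within the spread of the libraries, Cebpa at 6.57 ± 0.338 and 6.3 ± 0.696 FPKM and Cebpd at 6.37 ± 0.846 and 8.17 ± 1.45 FPKM (0.36 ± 0.17, adjusted p = 0.215). Fos stood at 2.15 ± 0.563 and 2.78 ± 0.42 FPKM (0.37, 0.326).

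**Figure D4:**
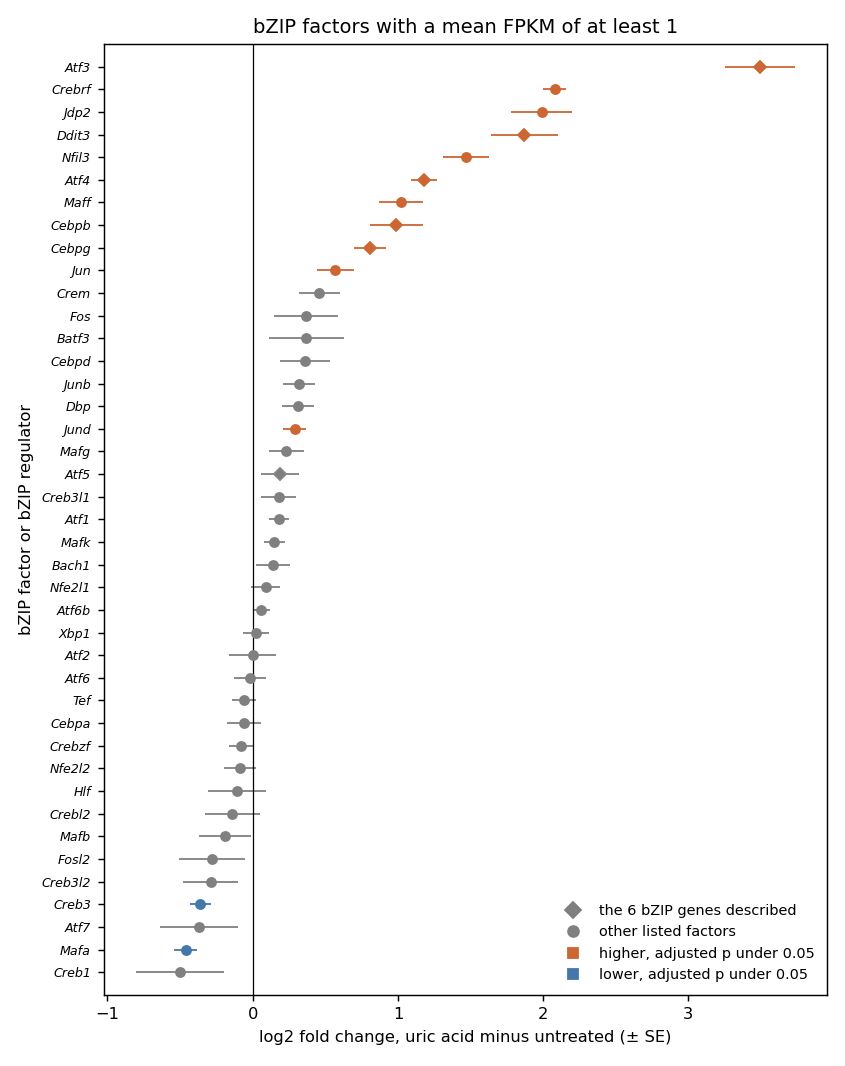
Log2 fold changes (uric acid minus untreated, ± SE) of the 6 bZIP genes described (diamonds) and 35 other listed bZIP factors or regulators (circles), orange where higher and blue where lower at an adjusted p under 0.05. Atf3 at 3.49, Crebrf at 2.08, Jdp2 at 1.99, Ddit3 at 1.87 and Nfil3 at 1.47 head the plot, and Mafa at -0.46 and Creb3 at -0.36 are the 2 called lower.

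Among known targets of ATF4 outside the 8 genes, 22 of 31 tested rose and none fell in edgeR. This list, like the others here, was written with earlier results of these data known, so its counts are a description. The median log2 fold change was 0.65, and 4.99% of all tested features were called higher and 2.99% lower. Of the 22, Slc7a11 and Inhbe passed the filter on low values only through their uric acid libraries. Their means were 0.264 and 0.361 FPKM untreated and 2.36 and 10.2 FPKM with uric acid. At an unadjusted p under 0.05, 25 were higher and 0 lower (13.7 and 12.0% of all tested features), and DESeq2 called 24 higher and 0 lower (7.77 and 6.3%). Leave-one-out fits called 16 to 24 higher. The amino acid carrier Slc38a2 (SNAT2) went from 38.6, 38.5 and 37 to 78.2, 79.4 and 71.4 FPKM (1.01 ± 0.06, adjusted p = 9.29e-05 in edgeR). Slc7a1 went from 14, 12.7 and 12.7 to 42.8, 39.9 and 36.5 FPKM, and Slc7a5 from 39.3, 39.8 and 39.7 to 83.5, 81.2 and 74.7 FPKM. These 3 carriers were named for their small p, which favours close replicates. Other carriers on the list were more spread with uric acid, Slc3a2 at 164 ± 38.8 FPKM and Slc7a11 at 2.36 ± 0.695 FPKM, as was Gdf15 at 69.8 ± 24.2 FPKM. Chac1 went from 3.08, 4.07 and 4.44 to 56.3, 52.5 and 45.8 FPKM, highest in library 1. Over the 22 that rose, library 3 was the lowest in 22 and library 2 the highest in 13, and the median ratio of library 2 to library 3 was 1.25, against 1.75 for the 8 genes. Asns, a classic target, did not pass at 128 ± 6.16 against 146 ± 18.8 FPKM (0.20 ± 0.09, adjusted p = 0.224).

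Of 8 tested genes listed as targets of CHOP outside the 8 genes, 2 rose and none fell in edgeR or DESeq2, with a median of -0.08. The list does not separate genes raised by CHOP from genes lowered by it. These counts and the median therefore do not describe CHOP activity. In edgeR, 4.99% of all tested features were called higher and 2.99% lower. At an unadjusted p under 0.05 in edgeR, 2 were higher and 2 lower (13.7 and 12.0% of all tested features). The 2 lower were Ero1a (-0.28 ± 0.1, adjusted p = 0.13 in edgeR) and Dnajb9 (-0.23 ± 0.08, 0.123). For these and Ero1b (-0.2 ± 0.12), all uric acid libraries lay below the untreated ones, as in 14.2% of all tested features. The 2 that rose were Ppp1r15a, given above, and Bcl2l11, which encodes the death-promoting protein BIM. Bcl2l11 went from 4.82, 4.82 and 5.04 to 7.07, 6.46 and 6.8 FPKM (0.47 ± 0.08, adjusted p = 0.00988 in edgeR). That call was lost without untreated library 2 (0.0687), without uric acid library 1 (0.0598) and with the replicate number as a block (0.0522). None of 16 regulators and partners of the proteins, among them the other tribbles genes Trib1 and Trib2 and the ubiquitin ligase genes Cop1 and Btrc, passed in edgeR. At an unadjusted p under 0.05, 2 of the 16 were higher and 0 lower (13.7 and 12.0% of all tested features), and DESeq2 called Trib1 higher (0.41 ± 0.14, adjusted p = 0.0228). Without uric acid library 2, edgeR called Trib1 higher too (0.55 ± 0.09, adjusted p = 0.00743).

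The DNA element that ATF4 and C/EBP proteins bind as a pair was sought before the start sites of the genes. Of the RefSeq promoter windows of GRCr8, 250 bases before to 50 after each start, 7 belonged to the 8 genes. They were searched on both strands for TGATGNAA, found in 3.98% of all 33469 windows. A match was found in the windows of Nupr1 and Trib3 and in no other of the 7. The genes of the other windows are not listed here, so a gene without a match may have had no window. The 120 bases before each of these 2 starts are printed because they show the element in both, in the reverse direction and close to the start, with the matched bases in capitals.
Nupr1: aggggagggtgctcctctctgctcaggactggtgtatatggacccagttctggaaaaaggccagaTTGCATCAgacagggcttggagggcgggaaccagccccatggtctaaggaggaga
Trib3: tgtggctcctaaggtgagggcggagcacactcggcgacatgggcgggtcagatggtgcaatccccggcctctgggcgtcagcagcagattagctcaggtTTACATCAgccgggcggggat
The Nupr1 stretch is chr1:190645902-190646021 and the Trib3 stretch chr3:161275534-161275653, both on the minus strand of GRCr8. The match lies from -55 to -48 in Nupr1 and from -21 to -14 in Trib3, counted from the start.

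The same element was found in the windows of 11 of 32 ATF4 targets outside the 8 genes, and of 9 of the 22 that rose. A gene counted if any of its windows matched, so these counts are not comparable with the share of single windows. Short stretches of 3 of them are printed for comparison with Nupr1 and Trib3: the 2 genes nearest to Trib3 in profile and Jdp2, a bZIP factor.
Chac1: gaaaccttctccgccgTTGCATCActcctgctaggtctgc
Inhbe: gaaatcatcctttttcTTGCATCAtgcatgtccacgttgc
Jdp2: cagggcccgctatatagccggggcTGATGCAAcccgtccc
These are chr3:126795948-126795987 on the plus strand, chr7:65064724-65064763 on the minus strand and chr6:110993551-110993590 on the plus strand of GRCr8. Nupr1, Chac1 and Inhbe share the 8 bases TTGCATCA, Jdp2 has the same bases on the other strand, and Trib3 has TTACATCA. The narrower forms TGATGNAAT (1.09% of all windows) and TGATGCAAN (0.792%), which both lie within the first form, were each found in 1 of the 7 windows, that of Nupr1. TGACGTCA, the cyclic AMP response element, and the endoplasmic reticulum stress element (CCAAT and CCACG with 9 bases of any kind between them), on both strands, were found in none of the 7 windows, and in 1.83 and 0.0657% of all windows. A match is a description of these letters and says nothing of binding.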

How the data were processed

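Messenger RNA of 6 INS-1E libraries was selected by its poly(A) tail and sequenced in paired reads of 150 bases, per the labels' protocols. Tools named in the submitters' processing notes, without roles, are HISAT2 2.0.4, StringTie 1.3.4d, cutadapt 1.9, edgeR and DESeq2. The genome build and the strand setting of counting are not given in the sources used here. The authors deposited FPKM and whole-number estimated counts. In 98.6% of 4686 small RNA values, the deposited count was the one implied by FPKM, rounded up. What 1 count stands for is not stated, so counts divided by 4 were also tried.

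Features with a mean of at least 1 FPKM were tested in edgeR 4.0.16 (R 4.3.3; quasi-likelihood F test, TMM scaling, no covariate, two-sided), with adjusted p under 0.05 over all 12460 tested. Replicates varied by 0.127 (edgeR's common biological coefficient of variation). The script was tested on simulated data, where it recovered 40.9% of log2 changes of 0.5, 89.2% of 1 and 95.7% of 2, with 8 false calls. A small change that did not pass may therefore have been missed. These changes were set in 66, 65 and 69 features, fewer in all than the 994 called in the data. Recovery rates in the data may therefore differ. An exact permutation test of 3 against 3 cannot pass that threshold and was not run. Alternatives were DESeq2 1.42.0, limma 3.58.1 on log2(FPKM + 1) and log2(FPKM + 0.1), other scaling and filters, the replicate number as a block, each library left out and, added after seeing the data, Nupr1 and Nupr1l1 summed.

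The 8 genes and all lists were chosen with earlier results of these data known. Of 131 listed genes outside the 8, 122 were matched, 2 through older symbols. Named were the 8 genes, up to 4 genes called in each direction per list with the smallest p and non-overlapping groups, 13 genes whatever their result, features overlapping the 8, and the 3 profiles nearest to Atf4, Ddit3 and Trib3. Trib1, Trib2, Cop1, Btrc, Eif2s1, Gcn1, Dele1, Impact, Dnajc3, Slc3a2, Slc7a11, Ero1a, Ero1b, Dnajb9 and Nupr1l1 were named after their values were seen. Promoters are from RefSeq (GRCr8). A planned comparison of protein sequences was not made.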

Additional observations from a re-analysis of the deposited data

How the results depend on the processing

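The 8 genes gave 127 values under 16 alternative fits: none reversed, and 6 no longer passed, 4 of Cebpb and 2 of Nupr1. The number called higher was 7 in the reported fit, 5 to 7 with 1 library left out, and 6 with a filter of at least 5 FPKM, which leaves Atf3 untested. Over all features, 622 were called higher and 372 lower, 968 and 785 with DESeq2, 165 to 707 and 66 to 466 with 1 library left out. The listed genes outside the 8 numbered 31 higher and 3 lower, 6 lower with DESeq2, and 20 to 35 higher and 1 to 4 lower with 1 library left out. With the replicate number as a block, 223 features were higher and 99 lower, 1 listed gene was lower, and 6 of the 8 genes were higher, Cebpb not passing at 0.96 (adjusted p = 0.0549). The labels do not say that the numbers pair libraries, so they were not taken as pairs. Deviations from the group means correlated at 0.07, -0.05 and -0.19 for same-numbered libraries and at -0.23 to 0.26 for differently numbered ones. With 3 libraries per group, these values cannot decide whether libraries were paired. The narrower promoter forms each matched 1 window in place of 2. Among named genes not called, the sign changed in leave-one-out fits for Atf6 (range -0.12 to 0.09), Cebpa (-0.12 to 0.04) and Xbp1 (-0.07 to 0.08), with Atf6 also at 0.02 and Xbp1 at -0.01. Such fits and the block have fewer residual degrees of freedom; other causes were not tested. Atf3, with 122 to 151 counts in untreated libraries, rests on the fewest counts of the 8.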

Other observations

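Other features kept a nearly fixed ratio to Ddit3 over the 3 uric acid libraries. Among the 621 features called higher, ranked by the coefficient of variation of that ratio, Akna was the fourth (3.74%), Gdf15 the sixth (5.45%), Ppp1r15a the seventh (6.13%), G0s2 the ninth (7.49%) and Zc3h8 the tenth (8.13%). These genes were named after their values were seen, and the ranking rests on 3 libraries.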
